A study of Mus musculus with 24 samples.

Results

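The 6 genes described here encode receptors for the constant (Fc) part of antibodies, or proteins of the same family, that mouse B cells transcribe. They were taken by their symbols, Fcer2a, Fcgr2b, Fcrl1, Fcrl5, Fcrla and Fcgrt, from 27179 gene entries in the deposited count tables. The rule itself uses no measured value, but the genes were chosen with earlier results of these data known. RNA-seq had been run on 24 libraries of C57BL/6 lymph node B cells, sorted as CD3- B220+ CD138-, 2 per genotype and stage over 4 genotypes and 3 stages. The stages were naive cells, cells cultured for 48 h with CD40 ligand and interleukin 4 (CD40L + IL-4), and cells cultured for 48 h with lipopolysaccharide and interleukin 4 (LPS + IL-4). The labels give a culture protocol with CD40L + IL-4 for every sample, so the stage was taken from titles and source names.

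Control cells were Cd23T/+ and PU.1 cKO cells Spi1fl/fl Cd23T/+. PU.1 SpiB DKO cells were Spi1fl/fl Cd23T/+ Spib-/-, and SpiB KO cells were Spi1fl/fl Cd23+/+ Spib-/-. Spi1 encodes PU.1 and Spib encodes SpiB, a pair of related ETS transcription factors, and Cd23T is a BAC transgene in which the regulatory sequences of Cd23 drive Cre. Cd23 is another name of Fcer2a, so the Cre driver and a gene of the present set share regulatory sequences. SpiB KO cells alone lacked the transgene. Loss of Spib, absence of the transgene and the unrecombined floxed alleles therefore cannot be told apart in SpiB KO against control. The transgene difference enters every comparison that uses SpiB KO cells. Whether the BAC adds reads to Fcer2a is not given in the sources used here.

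Fc receptors let cells read antibodies. CD23, the product of Fcer2a, is the low-affinity receptor for IgE and a classical surface marker of follicular B cells that interleukin 4 induces. Fcgr2b encodes the inhibitory receptor for IgG, which recruits phosphatases through a tyrosine motif and damps B cell receptor signalling. Fcrl1 and Fcrl5 encode Fc receptor-like surface proteins with tyrosine motifs, Fcrla encodes a family member that stays inside the cell and binds immunoglobulin there, and Fcgrt encodes the heavy chain of the neonatal Fc receptor, which salvages IgG from endosomes.

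All 6 genes were placed in the RefSeq annotation of GRCm38.p6. Fcer2a occupies chr8:3680280-3694174 on the minus strand, where Trappc5 on the opposite strand overlaps 642 bases of it. Fcgr2b (chr1:170960558-170976071) and Fcrla (chr1:170917594-170932216) lie 28.3 kb apart on the minus strand of chromosome 1, and Fcrl1 (chr3:87376353-87403967) and Fcrl5 (chr3:87435777-87500678) lie 31.8 kb apart on the plus strand of chromosome 3. Fcgrt (chr7:45092993-45103822, minus strand) is 0.56 Mb from Spib, so in the genotypes with Spib-/- the loss of Spib and any difference in the surrounding chromosome segment cannot be told apart. The lncRNA genes Gm31940 and Gm40085 overlap Fcrl1 and Fcrl5 by 1251 and 13658 bases, and the pseudogene Gm2962 overlaps Fcrla by 484 bases. Of the 50-base stretches of the Fcgr2b transcripts, 6.95% also occur in Fcgr3 or Gm38204, against 1.2% of those of Fcer2a shared with other genes and 0.00% for the other 4 genes. Reads that map to more than 1 place had been dropped before counting.

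ETS factors bind DNA around a GGAA core. The 250 bases before the annotated start were read from RefSeq for all 6 genes, and 4 windows are shown because they belong to 3 of the 4 genes called lower in cultured PU.1 cKO cells and to Fcrl1, which was called in no mutant. Capitals mark GGAA on either strand, with TTCC as its reverse complement. The windows, in the order printed, are chr8:3694175-3694424 on the minus strand, chr1:170976072-170976321 on the minus strand, chr3:87435532-87435781 on the plus strand and chr3:87376137-87376352 on the plus strand, the last of them ended where the annotated gene begins.
Fcer2a: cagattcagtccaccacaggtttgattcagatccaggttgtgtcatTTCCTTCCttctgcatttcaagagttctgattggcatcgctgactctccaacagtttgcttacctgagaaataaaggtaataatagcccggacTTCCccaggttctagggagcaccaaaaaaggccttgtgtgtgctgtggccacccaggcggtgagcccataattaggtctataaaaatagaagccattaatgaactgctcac
Fcgr2b: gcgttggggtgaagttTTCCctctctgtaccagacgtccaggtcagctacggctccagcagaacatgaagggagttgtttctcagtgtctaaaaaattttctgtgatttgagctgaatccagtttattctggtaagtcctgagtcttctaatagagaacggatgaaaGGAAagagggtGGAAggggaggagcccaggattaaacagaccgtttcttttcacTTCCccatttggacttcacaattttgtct
Fcrl5: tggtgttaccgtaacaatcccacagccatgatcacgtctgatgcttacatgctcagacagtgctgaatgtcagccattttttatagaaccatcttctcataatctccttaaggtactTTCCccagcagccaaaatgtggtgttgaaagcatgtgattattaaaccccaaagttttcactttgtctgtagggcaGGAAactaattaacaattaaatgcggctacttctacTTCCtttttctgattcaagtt
Fcrl1: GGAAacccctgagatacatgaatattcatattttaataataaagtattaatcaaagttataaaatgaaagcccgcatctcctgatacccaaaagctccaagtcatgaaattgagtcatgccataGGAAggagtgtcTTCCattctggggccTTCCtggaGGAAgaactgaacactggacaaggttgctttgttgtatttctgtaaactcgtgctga

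GGAA occurred 3 times in the printed Fcer2a window, 4 times in that of Fcgr2b and 3 times in that of Fcrl5. Windows before the internal annotated starts of Fcer2a held 4 and 2. Which start these cells use was not tested. The Fcrla window, before a start that lies inside the annotated gene, held 1, though Fcrla too was called lower in PU.1 cKO cells in both cultures. The window of Fcgrt held 3. The Fcrl1 window held 7 over its whole 250 bases, 5 of them in the bases printed. Among 27025 RefSeq promoter windows of that length, 93.4% held at least 1 GGAA, 54.8% held 3 or more and 3.77% held 7 or more. The longer ETS word AGGAAGT, which contains GGAA, was found on the reverse strand 23 bases before the start of Fcrl5 and 15 bases before that of Fcrl1, and in 7.8% of all windows. The composite ETS and IRF element (GGAA, any 2 bases, then GAAA) was found in the Fcgr2b window alone among the 6 genes, 35 bases before the start on the reverse strand, and in 2.4% of all windows. TTC and GAA with any 4 bases between them, the arrangement bound by STAT6 downstream of interleukin 4, was found 168 bases before an internal start of Fcer2a, where it overlaps a GGAA, and in 5.9% of all windows. These matches describe letters in the windows and say nothing of occupancy.

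The libraries held 14231188 to 18194629 counts on genes in naive cells, 9598674 to 61640683 after CD40L + IL-4 and 22757630 to 73658850 after LPS + IL-4. Spib fell in the genotypes with Spib-/- at all stages, with log2 fold changes of -3.83 to -5.50 against control. Spi1 counts, which cover all exons while the floxed segment is a single exon, fell in PU.1 cKO cells at each stage, by 1.54 in naive cells, 1.24 after CD40L + IL-4 and 0.63 after LPS + IL-4. The floxed exon was in part retained in naive PU.1 SpiB DKO cells, as the read coverage of the study showed, and was deleted in cultured ones. The naive PU.1 SpiB DKO group is thus a partial loss of PU.1. Stage and completeness of that loss cannot be told apart where its effect is compared between naive and cultured cells. In PU.1 SpiB DKO cells Spi1 stood at 108 and 118 CPM in naive cells against 63.6 and 57.0 CPM in PU.1 cKO cells, and after LPS + IL-4 it was not called against control (58.8 and 54.8 against 69.1 and 60.0 CPM, log2 fold change of -0.11, edgeR adjusted p = 0.448). The 7 B cell markers were present in every library and summed to 2812 to 11176 CPM. The 9 plasmacytoid dendritic cell (pDC) markers summed to 1910 to 2906 CPM in naive libraries with Spib-/-, against 250 to 418 CPM in the other naive libraries and at most 97.2 CPM in cultured ones.

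Levels below are CPM, counts scaled to a common library size, after TMM normalization over all 24 libraries, given for replicate 1 and then replicate 2. Differences are log2 fold changes with standard errors from edgeR's quasi-likelihood test, with p-values adjusted over all genes tested. A gene was called at an adjusted p under 0.15, a fold over 1.5 and a mean deposited log2 RPKM above 0, the thresholds of the study. The comparisons of the 3 mutants with control at a stage share the same 2 control libraries. The sources speak of biological replicates but the labels do not tie libraries to animals, so the p-values measure the spread between these samples. As the RNA came from whole sorted populations, fewer cells of a type and less RNA per cell cannot be told apart.

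In control cells the 6 genes spanned a wide range of levels per length of transcript, and 5 of them were called between each pair of stages. In naive control cells the mean deposited log2 RPKM was 9.13 for Fcer2a, 8.67 for Fcrla, 7.87 for Fcrl1, 6.29 for Fcgr2b, 5.37 for Fcgrt and 3.16 for Fcrl5, with SDs of 0.034 to 0.23 over 2 libraries. After CD40L + IL-4, in values normalized separately, the order was Fcer2a (8.89), Fcrla (5.72), Fcgr2b (4.98), Fcrl1 (3.9), Fcgrt (3.10) and Fcrl5 (2.02). The means of Fcrla and Fcgr2b, of Fcrl1 and Fcgrt, and of Fcgrt and Fcrl5 differed by less than 2 of the larger SD of each pair. The largest of these SDs was 0.61. After LPS + IL-4 Fcer2a stood highest again (8.30), followed by Fcgr2b (5.93), Fcrl1 (5.24), Fcrl5 (5.23), Fcrla (3.83) and Fcgrt (1.03). Fcrl1 and Fcrl5 did not differ there beyond their SDs of 0.15 and 0.086.

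Between naive and CD40L + IL-4 control cells 5 of the 6 genes were called, all lower after culture, where 35.3% of all 13684 genes tested were called. Fcrl1 showed the largest fall of the 6, from 504 and 505 CPM to 29.6 and 33.2 CPM (log2 fold change -4.01 ± 0.20, edgeR adjusted p = 3.17e-12). Fcrla fell by 3.02 on the log2 scale, Fcgrt by 2.15, Fcgr2b by 1.29 and Fcrl5 by 1.04. Fcer2a, the gene with the smallest change, went from 1432 and 1541 CPM to 987 and 1041 CPM, which is 1.47-fold and below the fold threshold (-0.55 ± 0.15, edgeR adjusted p = 0.0046). The fold threshold was passed without cultured control replicate 2 (-0.59) or naive control replicate 1 (-0.60), and under quantile normalization the difference was -0.20.

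Between naive and LPS + IL-4 control cells 5 of the 6 genes were again called, where 47.6% of all genes were. Fcrl5 went the other way from the rest, from 30.4 and 30.3 CPM to 129 and 126 CPM (2.07 ± 0.23, edgeR adjusted p = 1.63e-07). Fcrla fell by 5.06, from 857 and 709 CPM to 28.9 and 18.5 CPM, Fcgrt by 4.49, Fcrl1 by 2.73 and Fcer2a by 1.02. Fcgr2b was not called (-0.41 ± 0.18, edgeR adjusted p = 0.0521). Between the 2 kinds of culture 5 of the 6 genes were called, where 31.2% of all genes were. Fcrl5 (3.11), Fcrl1 (1.27) and Fcgr2b (0.88) were higher after LPS + IL-4, and Fcrla (-2.04) and Fcgrt (-2.34) were lower. The CD40L + IL-4 libraries were counted in a table of their own, apart from the naive and LPS + IL-4 libraries. Stage and batch cannot be told apart in these comparisons between stages.

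**Figure D1:**
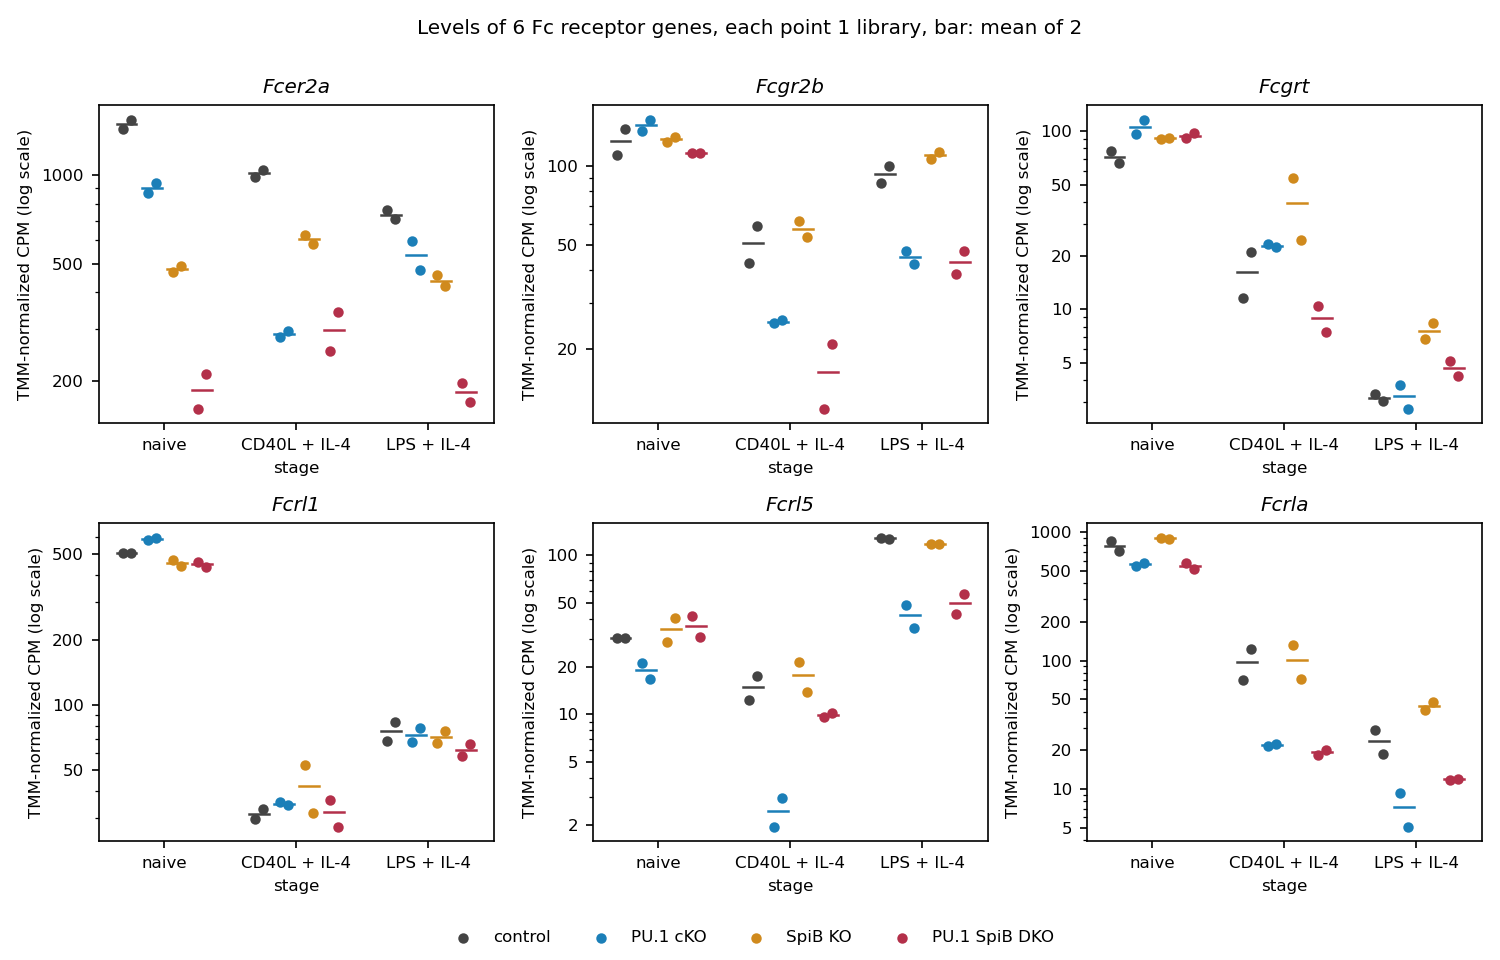
TMM-normalized CPM (log axis, a different range in each panel) of the 6 genes in naive, CD40L + IL-4 and LPS + IL-4 cells of 4 genotypes, each point 1 library and each bar the mean of 2. Fcer2a is lowest in PU.1 SpiB DKO cells in naive and LPS + IL-4 cells, whereas in CD40L + IL-4 cells its PU.1 cKO libraries (281 and 295 CPM) lie between the PU.1 SpiB DKO libraries (252 and 342 CPM).

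Over the 3 comparisons with control, the 6 genes gave 4 calls in naive cells, 7 after CD40L + IL-4 and 11 after LPS + IL-4. In naive cells 2 of the 6 genes were called in PU.1 cKO, where 8.40% of all genes were called, 1 in SpiB KO (6.35% of all genes) and 1 in PU.1 SpiB DKO (14.1%). After CD40L + IL-4, 4 of 6 were called in PU.1 cKO, all lower, where 9.36% of all genes were called, 0 in SpiB KO (0.110%, or 14 genes, with 459 at an unadjusted p under 0.05 by edgeR and 2 of the 6 called by DESeq2) and 3 in PU.1 SpiB DKO, all lower (13.7%). After LPS + IL-4, 3 of 6 were called lower in PU.1 cKO, where 6.67% of all genes were called, 3 in SpiB KO, 1 lower and 2 higher (2.29%), and 5 in PU.1 SpiB DKO, 4 lower and 1 higher (13.6%). Fcrl1 was the gene called in none of these 9 comparisons.

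The cultured libraries of the genotypes lacking PU.1 also differed in plasma cell markers. The 9 plasma cell genes summed to 1893 and 2229 CPM in control, 3303 and 3645 CPM in PU.1 cKO and 4442 and 4569 CPM in PU.1 SpiB DKO after CD40L + IL-4, and to 1250 and 1396, 2115 and 2341, and 2905 and 2861 CPM after LPS + IL-4. Of these genes 5 were called higher in PU.1 cKO and 7 in PU.1 SpiB DKO after CD40L + IL-4, and 5 and 6 after LPS + IL-4, while Tnfrsf17 was at 0 in some groups. Of all genes, 9.36% and 13.7% were called in either direction in these mutants after CD40L + IL-4, and 6.67% and 13.6% after LPS + IL-4. The summed B cell markers ran from 5560 and 7147 CPM in control to 4722 and 3683 CPM in PU.1 SpiB DKO cells after CD40L + IL-4. The 12 macrophage markers, of which Csf1r, Cd14, Marco and the C1q genes were at 0 in every CD40L + IL-4 library, summed there to 42.9 and 58.2 CPM in control, 10.2 and 9.06 CPM in PU.1 cKO and 11.8 and 8.68 CPM in PU.1 SpiB DKO cells. The 9 marginal zone B cell markers, which share Mzb1 with the plasma cell list, summed to 580.0 and 766 CPM in control, 1049 and 1175 CPM in PU.1 cKO and 1625 and 1626 CPM in PU.1 SpiB DKO cells after CD40L + IL-4. Of these, 1 was called higher and 4 lower in PU.1 cKO and 3 higher and 1 lower in PU.1 SpiB DKO. After LPS + IL-4 their sums were 822 and 856 CPM in control, 895 and 943 CPM in PU.1 cKO and 1182 and 1265 CPM in PU.1 SpiB DKO cells. The sort had taken CD138- cells, a gate that would remove plasma cells. The part of these shifts in the falls of Fc receptor genes was not tested.

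**Figure D2:**
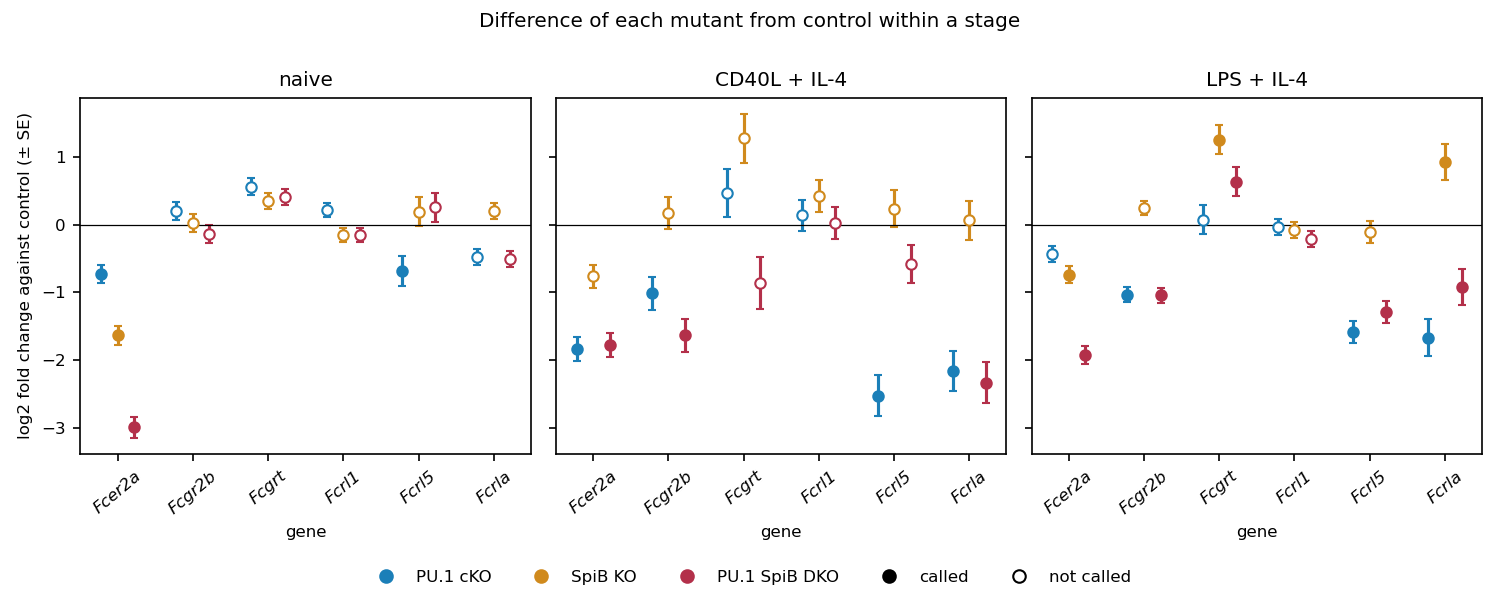
Log2 fold change against control (vertical axis, bars ± SE) of the 6 genes in PU.1 cKO, SpiB KO and PU.1 SpiB DKO cells at each stage, with filled points called and open points not called. Fcer2a is below 0 in all 9 comparisons, and Fcrl1 is open in all of them.

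Every mutant library held less Fcer2a than both control libraries of its stage, and 7 of the 9 comparisons were called, but the order of the genotypes differed between stages. Naive cells had 1432 and 1541 CPM in control, 866 and 938 CPM in PU.1 cKO cells, 468 and 491 CPM in SpiB KO cells and 161 and 211 CPM in PU.1 SpiB DKO libraries, and no 2 groups overlapped. The log2 fold changes were -0.73 for PU.1 cKO, -1.63 for SpiB KO and -2.99 for PU.1 SpiB DKO (SE of 0.14 to 0.15, largest edgeR adjusted p = 0.014). Beside these, the naive B cell markers summed to 11012 to 11176 CPM in control and 8271 to 8898 CPM in PU.1 SpiB DKO, while the T cell markers summed to 66.3 to 100.3 CPM in control and 492 to 502 CPM in PU.1 SpiB DKO, although the sort had taken CD3- cells. The marginal zone B cell markers summed to 1200.2 and 1333 CPM in control and 1672 and 1645 CPM in PU.1 SpiB DKO libraries. The part of these shifts in the result was not tested.

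After CD40L + IL-4 the order of the genotypes was another. Fcer2a stood at 987 and 1041 CPM in control, 624 and 584 CPM in SpiB KO cells, 281 and 295 CPM in PU.1 cKO cells and 252 and 342 CPM in PU.1 SpiB DKO cells. Each SpiB KO library was below each control library and above each library lacking PU.1, and the libraries of the genotypes lacking PU.1 overlapped each other. Fcer2a fell 3.57-fold in PU.1 cKO (log2 fold change -1.84 ± 0.17, edgeR adjusted p = 0.000103) and 3.43-fold in PU.1 SpiB DKO cells (-1.78 ± 0.17, edgeR adjusted p = 9.3e-05). The difference in SpiB KO cells, -0.76 ± 0.17, was not called (edgeR adjusted p = 0.282), yet it was called by DESeq2 (-0.77, adjusted p = 0.00647), without the filter on low counts, with the replicate number as a block and in the fit of all 24 libraries. PU.1 SpiB DKO differed from PU.1 cKO cells by 0.06 ± 0.17 (edgeR adjusted p = 0.927), with the sign turned without PU.1 SpiB DKO replicate 2 (-0.19).

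After LPS + IL-4 Fcer2a was 758 and 709.8 CPM in control, 597 and 475 CPM in PU.1 cKO cells, 457 and 419.8 CPM in SpiB KO cells and 198 and 169.7 CPM in PU.1 SpiB DKO cells. The 4 groups did not overlap, in the order found in naive cells. The gene fell 3.80-fold in PU.1 SpiB DKO (-1.93 ± 0.13, edgeR adjusted p = 1.06e-05) and 1.67-fold in SpiB KO cells (-0.74 ± 0.13, edgeR adjusted p = 0.0179), the latter call being lost without SpiB KO replicate 2 (-0.68, adjusted p = 0.155). In PU.1 cKO cells the difference was 1.35-fold and below the fold threshold (-0.44 ± 0.12, edgeR adjusted p = 0.0541), but passed it without PU.1 cKO replicate 1 (-0.60, adjusted p = 0.0297). PU.1 SpiB DKO cells had 2.81-fold less Fcer2a than PU.1 cKO cells (-1.49 ± 0.13, edgeR adjusted p = 0.000197).

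The effect of each mutant genotype on Fcer2a differed between stages when that difference was tested in the fit of all 24 libraries. The PU.1 cKO effect was more negative after CD40L + IL-4 than in naive cells (difference of -1.09 ± 0.21, edgeR adjusted p = 0.0061) and less negative after LPS + IL-4 than after CD40L + IL-4 (1.36 ± 0.21, edgeR adjusted p = 0.00304). The SpiB KO effect was less negative in both cultures than in naive cells (0.89 ± 0.21 in each, edgeR adjusted p = 0.0506 and 0.0363), and so was that of PU.1 SpiB DKO (1.23 ± 0.22 and 1.0 ± 0.21, edgeR adjusted p = 0.000752 and 0.00354). For PU.1 SpiB DKO, stage and completeness of the PU.1 loss cannot be told apart, as naive cells retained part of the floxed exon. The SpiB KO differences rest on few libraries. That for CD40L + IL-4 was 0.56 (adjusted p = 0.402) in limma with quantile normalization and was lost without naive SpiB KO replicate 1 (0.85), naive control replicate 2 (0.83) or cultured SpiB KO replicate 1 (0.81). That for LPS + IL-4 was lost without naive SpiB KO replicate 1 (0.86), cultured SpiB KO replicate 1 (0.79) or cultured control replicate 2 (0.81).

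Fcgr2b, the inhibitory IgG receptor, was called in no naive mutant and fell in both cultures where PU.1 was lost. Naive libraries ranged from 110.0 to 150.1 CPM over all genotypes (log2 fold changes of 0.20 for PU.1 cKO, 0.02 for SpiB KO and -0.14 for PU.1 SpiB DKO). After CD40L + IL-4 it was 42.5 and 58.8 CPM in control, 25.0 and 25.7 CPM in PU.1 cKO cells, 61.8 and 53.4 CPM in SpiB KO cells and 11.8 and 20.8 CPM in PU.1 SpiB DKO cells. The libraries lacking PU.1 were all below the others, which overlapped. The fall was 2.02-fold in PU.1 cKO (-1.02 ± 0.24, edgeR adjusted p = 0.0241), lost without control replicate 2 (-0.78, adjusted p = 0.164), and 3.11-fold in PU.1 SpiB DKO cells (-1.64 ± 0.25, edgeR adjusted p = 0.00165).

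After LPS + IL-4 Fcgr2b was 86.1 and 99.9 CPM in control, 47.4 and 42.1 CPM in PU.1 cKO cells, 106 and 113 CPM in SpiB KO cells and 38.6 and 47.1 CPM in PU.1 SpiB DKO cells. It fell 2.05-fold in PU.1 cKO (-1.03 ± 0.11, edgeR adjusted p = 0.00036) and 2.07-fold in PU.1 SpiB DKO cells (-1.05 ± 0.11, edgeR adjusted p = 0.000141), whose libraries overlapped. SpiB KO libraries lay above the control ones without a call (0.24 ± 0.11, edgeR adjusted p = 0.377). Relative to naive cells, the PU.1 cKO effect was lower by 1.2 after CD40L + IL-4 (edgeR adjusted p = 0.0136) and by 1.26 after LPS + IL-4 (edgeR adjusted p = 0.0123). The PU.1 SpiB DKO effect was lower by 1.48 (edgeR adjusted p = 0.00141) and 0.97 (edgeR adjusted p = 0.0151), set against a partial naive loss of PU.1.

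Among the Fc receptor-like genes, Fcrl1 fell with culture and was called in no mutant. Its naive libraries held 504 and 505 CPM in control, 583 and 595 CPM in PU.1 cKO cells, 471 and 438 CPM in SpiB KO cells and 461 and 437 CPM in PU.1 SpiB DKO cells. Those of PU.1 cKO lay above and those of the other mutants below control, by 0.15 to 0.22 on the log2 scale and without a call (smallest edgeR adjusted p = 0.235). After CD40L + IL-4 it ranged from 27.4 to 53.0 CPM and after LPS + IL-4 from 58.1 to 83.2 CPM over the 8 libraries, with the highest of the latter in control. The differences from control in culture lay between -0.21 and 0.42.

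Fcrl5 fell in PU.1 cKO cells at each stage, and its fall after CD40L + IL-4 was the largest that any of the 6 genes showed in PU.1 cKO cells. Naive libraries had 30.4 and 30.3 CPM in control, 21.2 and 16.8 CPM in PU.1 cKO cells, 28.7 and 40.6 CPM in SpiB KO cells and 41.4 and 30.6 CPM in PU.1 SpiB DKO cells. The naive fall in PU.1 cKO was 1.61-fold (-0.68 ± 0.22, edgeR adjusted p = 0.0962) and was lost without control replicate 2 (-0.66), PU.1 cKO replicate 1 (-0.86) or PU.1 cKO replicate 2 (-0.54). Naive SpiB KO libraries overlapped control, those of PU.1 SpiB DKO lay above it (replicate 2 only just), and neither genotype was called.

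After CD40L + IL-4 Fcrl5 was 12.4 and 17.3 CPM in control, 1.97 and 2.97 CPM in PU.1 cKO cells, 21.4 and 13.9 CPM in SpiB KO cells and 9.58 and 10.3 CPM in PU.1 SpiB DKO cells. It fell 5.75-fold in PU.1 cKO (-2.52 ± 0.30, edgeR adjusted p = 0.000463). Its level in PU.1 SpiB DKO cells was not called against control (-0.58 ± 0.28, edgeR adjusted p = 0.199) and was 3.84-fold higher than in PU.1 cKO cells (1.94 ± 0.30, edgeR adjusted p = 0.00802). After LPS + IL-4, where control had 129 and 126 CPM and SpiB KO 117 and 119 CPM, it was 48.9 and 35.0 CPM in PU.1 cKO and 42.5 and 57.2 CPM in PU.1 SpiB DKO cells. Those falls were 3.00-fold (-1.59 ± 0.16, edgeR adjusted p = 0.000307) and 2.44-fold (-1.29 ± 0.16, edgeR adjusted p = 0.000395), and the libraries of these mutants overlapped.

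Fcrla, the intracellular member, also fell in cultured cells where PU.1 was lost. Naive levels were 857 and 709 CPM in control, 544 and 579 CPM in PU.1 cKO cells, 908 and 888 CPM in SpiB KO cells and 578 and 513 CPM in PU.1 SpiB DKO cells. The differences in PU.1 cKO (-0.48 ± 0.12, edgeR adjusted p = 0.0439) and PU.1 SpiB DKO (-0.51 ± 0.12, edgeR adjusted p = 0.0163) were 1.40- and 1.42-fold, below the fold threshold, and passed it without control replicate 2 (-0.59 and -0.61) or, for PU.1 SpiB DKO, without its replicate 1 (-0.61). PU.1 SpiB DKO cells were called lower than SpiB KO cells (-0.71 ± 0.12, edgeR adjusted p = 0.0189), a call lost without SpiB KO replicate 1 (-0.69, adjusted p = 0.168) and in the fit of all 24 libraries (-0.72, adjusted p = 0.222).

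After CD40L + IL-4 Fcrla was 71.1 and 122 CPM in control, 21.5 and 22.2 CPM in PU.1 cKO cells, 131 and 72.0 CPM in SpiB KO cells and 18.4 and 20.1 CPM in PU.1 SpiB DKO cells. The replicates of control and of SpiB KO were far apart, but all lay above the mutants lacking PU.1. The falls were 4.48-fold in PU.1 cKO (-2.16 ± 0.30, edgeR adjusted p = 0.00121) and 5.04-fold in PU.1 SpiB DKO cells (-2.33 ± 0.30, edgeR adjusted p = 0.000619).

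After LPS + IL-4, at 28.9 and 18.5 CPM in control, Fcrla was 9.34 and 5.08 CPM in PU.1 cKO cells, 41.4 and 47.7 CPM in SpiB KO cells and 11.7 and 11.9 CPM in PU.1 SpiB DKO cells. No 2 groups overlapped. It fell in PU.1 cKO (-1.67 ± 0.28, edgeR adjusted p = 0.00397) and PU.1 SpiB DKO (-0.92 ± 0.27, edgeR adjusted p = 0.0269), the latter down to -0.56 and without a call when control replicate 1 was left out. The rise in SpiB KO (0.92 ± 0.26, edgeR adjusted p = 0.136) was lost without control replicate 2 (0.61), SpiB KO replicate 1 (1.03) or SpiB KO replicate 2 (0.82), and in the fit of all 24 libraries (adjusted p = 0.16). PU.1 SpiB DKO cells stood above PU.1 cKO cells (0.74 ± 0.27, edgeR adjusted p = 0.0855), a call lost with quantile normalization (0.64) and without PU.1 cKO replicate 2 (0.41), PU.1 SpiB DKO replicate 1 (0.75) or PU.1 SpiB DKO replicate 2 (0.72).

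Fcgrt, the neonatal Fc receptor chain, differed from the other 5 genes in that its calls against control were both rises, after LPS + IL-4. Naive levels were 76.9 and 66.3 CPM in control, 96.0 and 116 CPM in PU.1 cKO cells, 90.6 and 91.5 CPM in SpiB KO cells and 91.2 and 96.9 CPM in PU.1 SpiB DKO cells. Every mutant library lay above both control libraries, with differences of 0.56 ± 0.12, 0.35 ± 0.12 and 0.40 ± 0.12 (edgeR adjusted p = 0.0264, 0.144 and 0.0456), all below the fold threshold. That of PU.1 cKO passed it without control replicate 1 (0.64) or PU.1 cKO replicate 1 (0.69).

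After CD40L + IL-4 Fcgrt was 11.6 and 20.9 CPM in control, 23.3 and 22.2 CPM in PU.1 cKO cells, 54.4 and 24.5 CPM in SpiB KO cells and 10.4 and 7.47 CPM in PU.1 SpiB DKO cells. SpiB KO libraries were the highest, though far apart, and PU.1 SpiB DKO libraries the lowest. Neither was called against control (1.27 ± 0.36, edgeR adjusted p = 0.606, and -0.86 ± 0.38, edgeR adjusted p = 0.165). Both were called by DESeq2 (1.26, adjusted p = 0.0642, and -0.87, adjusted p = 0.0853), with no filter on low counts, and when all 24 libraries were fitted. Leaving out 1 library in edgeR also called them, SpiB KO without its replicate 2 (1.75, adjusted p = 0.0715) and PU.1 SpiB DKO without control replicate 1 (-1.23, adjusted p = 0.134).

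After LPS + IL-4 Fcgrt was low everywhere, at 3.36 and 3.04 CPM in control, 3.75 and 2.77 CPM in PU.1 cKO cells, 6.79 and 8.39 CPM in SpiB KO cells and 5.13 and 4.21 CPM in PU.1 SpiB DKO cells. The libraries lacking SpiB were all above the rest. The rise was 2.38-fold in SpiB KO (1.25 ± 0.21, edgeR adjusted p = 0.019), lost without control replicate 2 (1.15, adjusted p = 0.167), and 1.55-fold in PU.1 SpiB DKO cells (0.63 ± 0.22, edgeR adjusted p = 0.0493). The latter call was lost with quantile normalization (0.40), in the fit of all 24 libraries (0.56) and without control replicate 2 (0.53) or PU.1 SpiB DKO replicate 1 (0.47).

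PU.1 SpiB DKO cells were also set against each single mutant. Against PU.1 cKO, 2 of 6 genes were called in naive cells, Fcer2a (-2.27 ± 0.14) and Fcrl5 (0.94 ± 0.22), where 7.21% of all genes were. After CD40L + IL-4 these were Fcrl5 and Fcgrt (-1.34 ± 0.37, edgeR adjusted p = 0.12, a call lost with quantile normalization and without either library of each of these mutants, from -1.12 to -1.60), where 3.01% of all genes were called. After LPS + IL-4 they were Fcer2a and Fcrla, where 8.11% of all genes were called. The naive Fcrl5 call was lost without PU.1 cKO replicate 2 (0.78) or PU.1 SpiB DKO replicate 1 (0.69).

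Against SpiB KO, 2 of 6 genes were called lower in naive cells, Fcer2a (-1.36 ± 0.14) and Fcrla, where 1.98% of all genes were called. SpiB KO cells lacked the Cre transgene, so loss of PU.1 and presence of the transgene cannot be told apart in these comparisons. After CD40L + IL-4, 5 of 6 were called lower, Fcer2a (-1.02 ± 0.17), Fcgr2b (-1.81 ± 0.25), Fcrl5 (-0.82 ± 0.28), Fcrla (-2.39 ± 0.30) and Fcgrt (-2.14 ± 0.38), where 11.4% of all genes were called. After LPS + IL-4 the same 5 genes were called lower, Fcer2a by 1.19, Fcgr2b by 1.29, Fcrl5 by 1.18, Fcrla by 1.84 and Fcgrt by 0.62, where 8.09% of all genes were called. The calls of Fcrl5 after CD40L + IL-4 and of Fcgrt after LPS + IL-4 were lost when 1 library was left out (for Fcrl5, SpiB KO replicate 1 with -0.48 or PU.1 SpiB DKO replicate 1 with -0.77 or replicate 2 with -0.87, and for Fcgrt, SpiB KO replicate 2 with -0.47 or PU.1 SpiB DKO replicate 2 with -0.50, and also with all 24 libraries in the fit).

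The interaction asks whether the double loss differs from the sum of the single losses on the log2 scale. SpiB KO cells alone lacked the Cre transgene, a difference that the test also carries. In naive PU.1 SpiB DKO cells the loss of PU.1 was partial. The interaction passed at an adjusted p under 0.15 for 0 of 6 genes in naive cells, where 0.936% of all genes passed (1416 at an unadjusted p under 0.05 by edgeR). By DESeq2, 1 of the 6, Fcer2a, passed in naive cells. For naive Fcer2a it was -0.63 ± 0.19 (edgeR adjusted p = 0.27), and naive Fcgrt passed without control replicate 1 (-0.59, adjusted p = 0.129). After CD40L + IL-4 it passed for 2 of 6, Fcrl5 (1.70 ± 0.40, edgeR adjusted p = 0.139) and Fcgrt (-2.61 ± 0.52, edgeR adjusted p = 0.0785), where 1.17% of all genes passed. Fcrl5 lost it in limma with quantile normalization (1.53) and without any 1 of 6 of the 8 libraries (1.40 to 2.08, all but replicate 1 of SpiB KO and of PU.1 SpiB DKO), and Fcgrt without control replicate 1 (-2.26) or PU.1 SpiB DKO replicate 2 (-2.40). Fcer2a had an interaction of the opposite sign there from that in naive cells (0.82 ± 0.24, edgeR adjusted p = 0.263), which passed by DESeq2 (adjusted p = 0.0649). After LPS + IL-4 it passed for 1 of 6, Fcer2a (-0.75 ± 0.18, edgeR adjusted p = 0.136), where 1.48% of all genes passed, and it was lost without 6 of the 8 libraries in turn (-0.60 to -0.89).

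**Figure D3:**
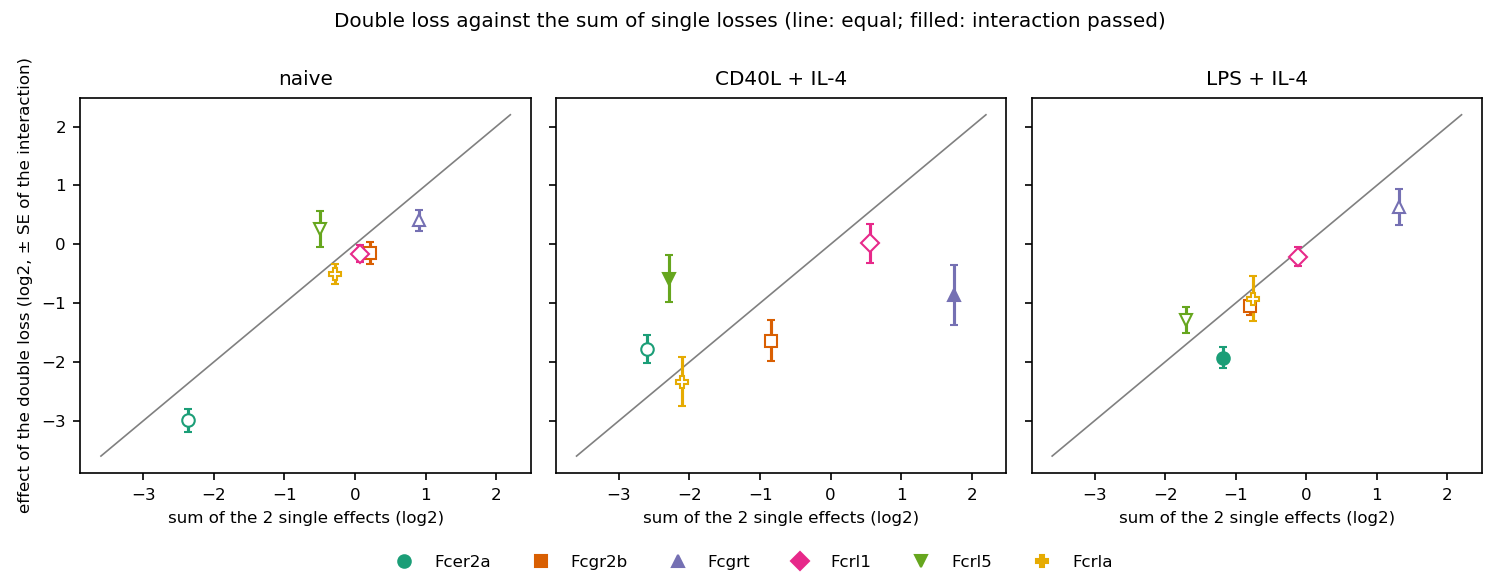
Log2 fold change of PU.1 SpiB DKO against control (vertical axis, bars ± SE of the interaction) plotted over the sum of the log2 fold changes of PU.1 cKO and SpiB KO (horizontal axis) for the 6 genes at each stage, with the line of equality and filled points where the interaction passed. Fcer2a lies below the line in naive and LPS + IL-4 cells and above it in CD40L + IL-4 cells, and Fcgrt is far below it after CD40L + IL-4.

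Effects against control were also compared between stages for each genotype. For PU.1 cKO the difference passed at an adjusted p under 0.15 for 4 of 6 genes between CD40L + IL-4 and naive cells, where 8.98% of all genes passed, for 3 between LPS + IL-4 and naive cells (6.34%) and for 1 between the cultures (3.09%). For SpiB KO it passed for 1 gene, Fcer2a, between each culture and naive cells (2.15% and 5.65% of all genes) and for 0 between the cultures (0.00%, with 421 genes at an unadjusted p under 0.05 by edgeR). For PU.1 SpiB DKO it passed for 4, 3 and 3 of the 6 genes in the same order, where 16.8%, 29.6% and 28.6% of all genes passed. The comparisons of that genotype with naive cells set a full loss of PU.1 against a partial one.

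Among the other Fc receptor genes, Fcmr, Fcer1g and Fcrls were called in PU.1 SpiB DKO cells. Of 13 genes on that list, 7 were tested in naive cells, 6 after CD40L + IL-4 and 7 after LPS + IL-4. Fcer1a and Ms4a2, the other chains of the high-affinity IgE receptor, and Fcrl6 stayed at or below 0.127 CPM in every library, and Fcgr1 and Fcgr4, activating IgG receptors of myeloid cells, at or below 0.297 and 1.53 CPM. Fcgr3, the activating IgG receptor next to Fcgr2b, did not pass 2.59 CPM. In PU.1 SpiB DKO cells 1 of the listed genes was called higher and 1 lower in naive cells, 1 and 1 after CD40L + IL-4, and 2 and 1 after LPS + IL-4. Of all genes tested, 14.1%, 13.7% and 13.6% were called there in either direction, in that order.

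Fcmr, named Faim3 in the files and encoding the IgM receptor, fell at each stage in PU.1 cKO cells and in PU.1 SpiB DKO cells. It stood at 2751 and 2904 CPM in naive control cells against 1362 and 1336 CPM in PU.1 cKO and 1295 and 1281 CPM in PU.1 SpiB DKO cells. After CD40L + IL-4 it was 262 and 371 CPM in control against 48.5 and 42.4 CPM in PU.1 cKO and 58.0 and 48.3 CPM in PU.1 SpiB DKO cells. After LPS + IL-4 it was 112 and 62.3 CPM in control against 16 and 7.13 CPM in PU.1 cKO and 27.0 and 31.4 CPM in PU.1 SpiB DKO cells. Fcmr fell by 1.07, 2.83 and 2.86 in PU.1 cKO and by 1.13, 2.58 and 1.5 in PU.1 SpiB DKO cells at the 3 stages in that order (largest edgeR adjusted p = 0.0111), and was not called in SpiB KO cells.

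Fcer1g, the signalling chain shared by activating Fc receptors, rose in PU.1 SpiB DKO cells at each stage. In naive cells it was 26.2 and 12.0 CPM in control, 123 and 80.8 CPM in SpiB KO (2.42 ± 0.34, edgeR adjusted p = 0.00284) and 135 and 107 CPM in PU.1 SpiB DKO cells (2.68 ± 0.34, edgeR adjusted p = 0.000709). In the same libraries 8 of the 9 pDC markers were called higher, and their part in this rise was not tested. Of all genes, 6.35% were called in either direction in naive SpiB KO and 14.1% in naive PU.1 SpiB DKO cells. After culture the pDC sums were lower in PU.1 SpiB DKO (43.7 to 48.6 CPM) than in control libraries (74.1 to 97.2 CPM), with Klk1 and Cd209d at 0, and the macrophage sums were 5.75 to 11.8 CPM. The T cell sums were higher, at 69.4 and 59.5 CPM in PU.1 SpiB DKO against 40.3 and 37.5 CPM in control after CD40L + IL-4. After LPS + IL-4 they were 57.3 and 61.6 CPM against 18.7 and 18.4 CPM. Their part in the rise was not tested. Fcer1g was there 20.5 and 11.0 CPM in PU.1 SpiB DKO against 0.762 and 2.15 CPM in control after CD40L + IL-4 (3.46 ± 0.50, edgeR adjusted p = 0.00123) and 9.05 and 8.77 CPM against 0.373 and 0.373 CPM after LPS + IL-4 (4.65 ± 0.34, edgeR adjusted p = 1.82e-05). It also rose in cultured PU.1 cKO cells, by 1.73 after CD40L + IL-4 and 2.09 after LPS + IL-4, the former call being lost without control replicate 1 (1.15) or PU.1 cKO replicate 2 (1.46).

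Fcrls, a secreted Fc receptor-like protein of the scavenger receptor type, was at 0 to 0.26 CPM in naive cells and 15.5 to 42.1 CPM after CD40L + IL-4, where no mutant was called. After LPS + IL-4 it was 3.40 and 1.65 CPM in control, 4.91 and 4.52 CPM in PU.1 cKO cells, 5.82 and 7.13 CPM in SpiB KO cells and 39.2 and 36.1 CPM in PU.1 SpiB DKO cells. The PU.1 SpiB DKO libraries stood apart from all others, with a rise of 4.05 ± 0.28 (edgeR adjusted p = 1.36e-05) against 1.01 ± 0.28 in PU.1 cKO (edgeR adjusted p = 0.0469) and 1.43 ± 0.28 in SpiB KO cells (edgeR adjusted p = 0.0338). The call in PU.1 cKO was lost without control replicate 2 (0.47) or PU.1 cKO replicate 1 (0.95) and in the fit of all 24 libraries (0.97), and that in SpiB KO without SpiB KO replicate 2 (1.30).

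**Figure D4:**
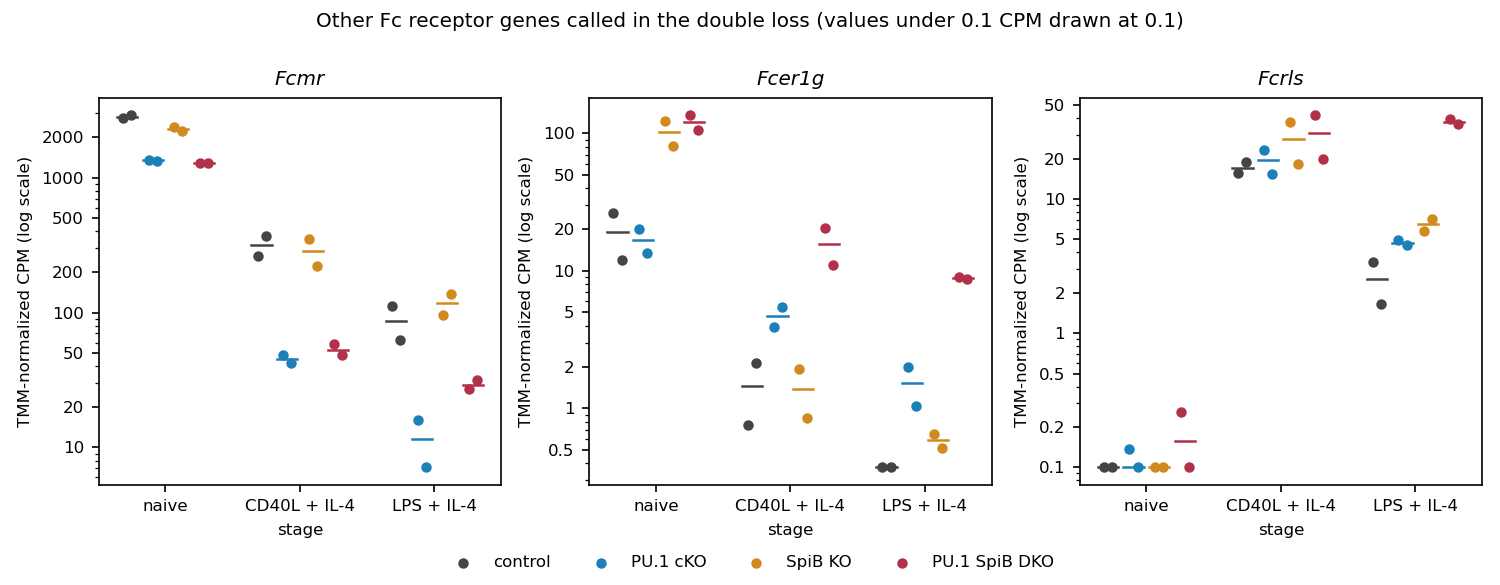
TMM-normalized CPM (log axis, values under 0.1 drawn at 0.1) of Fcmr, Fcer1g and Fcrls in the 4 genotypes at each stage, each point 1 library and each bar the mean of 2. Fcmr is lower than control in PU.1 cKO libraries and in those of PU.1 SpiB DKO at each stage, and the LPS + IL-4 PU.1 SpiB DKO libraries hold 39.2 and 36.1 CPM of Fcrls against at most 7.13 CPM in the other LPS + IL-4 libraries.

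Of 19 partner and signalling genes of these receptors, such as kinases, phosphatases and adaptors, 2 were called higher and 4 lower in naive PU.1 SpiB DKO cells against control. After CD40L + IL-4 the counts were 0 and 8, and after LPS + IL-4 they were 2 and 2. Of all genes tested, 14.1%, 13.7% and 13.6% were called in either direction at these stages in that order. The median log2 fold changes of the listed genes were -0.19, -0.46 and 0.03, against medians of all genes within 0.01 of 0. The listed genes with the largest changes in naive cells were the Src family kinase gene Fyn (1.17), the phosphatase gene Inppl1 (0.99), the adaptor gene Pik3ap1 (-0.73) and the kinase gene Btk (-0.73). After CD40L + IL-4 they were Pik3ap1 (-1.91), Btk (-1.30), the kinase gene Lyn (-1.29) and the phosphatase gene Ptpn6 (-1.19), encoding SHP-1. After LPS + IL-4 they were the adaptor gene Dok3 (1.21), Pik3ap1 (-0.78), the kinase gene Blk (0.69) and Btk (-0.67), and those of Blk and Btk were no longer called without control replicate 2 (0.56) and control replicate 1 (-0.55).

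For each gene the 3 others with the most similar pattern were found by Pearson's correlation of log2 CPM over the 24 libraries with the stage mean taken off, among 11581 genes that passed the filter at every stage. The values describe these libraries, which share genotypes and depth, and carry no test. Fcer2a was nearest to Hip1 (0.913), Fam111a (0.911) and Tdrd7 (0.910), and Fcgr2b to Ncf4 (0.932), Irf5 (0.910) and Blnk (0.906). Fcrl5 was nearest to Cd72 (0.941), Ms4a6c (0.925) and S100a11 (0.923), and Fcrla to Fcmr (0.968), Ncf4 (0.955) and Capg (0.936). Fcgrt was nearest to Cd38 (0.901), Itgb7 (0.891) and Ppdpf (0.874). Fcrl1 had the lowest values of the 6, with Nr1d2 (0.796), Tmem68 (0.773) and Gm15772 (0.703).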

How the data were processed

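RNA-seq of 24 libraries was deposited as 2 tables of raw counts per gene, 1 for the 8 CD40L + IL-4 libraries and 1 for the 16 naive and LPS + IL-4 libraries. The authors made the counts by aligning reads to GRCm38/mm10 with Subread and assigning uniquely mapped reads to RefSeq exons with featureCounts. They also deposited log2 RPKM per library, quantile normalized for each table on its own with limma, which served here for levels per length and as a filter. Entries without a symbol (517, with 0.162% of counts) were kept in the fits and left out only of the search for genes with the most similar pattern. Whether counting used strand is not given in the sources used here, so reads of overlapping genes could not be separated.

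Counts were tested in R 4.3.3 with edgeR 4.0.16 (TMM, quasi-likelihood, genes reaching 0.5 CPM in 2 or more libraries), in 1 fit of the 8 libraries of a stage, or of all 24 libraries for comparisons between stages. Benjamini-Hochberg adjusted p-values covered all genes tested, and standard errors were taken from the F statistic. The interaction was (PU.1 SpiB DKO minus PU.1 cKO) minus (SpiB KO minus control). Alternatives were limma 3.58.1 voom with quantile normalization, DESeq2 1.42.0, other scaling and filters, other sets of samples, a replicate block and leaving out each library in turn. With 2 libraries a group an exact two-sided permutation test cannot go below p = 0.333, so none was used. The procedure was tested on simulated data.

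Replicate numbers were checked for pairing by the correlation of same-numbered libraries' deviations from their group means. It was 0.386 to 0.514 over the 6 pairs of genotypes after LPS + IL-4, where same-numbered libraries thus shared deviations. The labels state no pairing, and the main fits used no block. The block changed no call of the 6 genes within that stage. With it the edgeR adjusted p of Fcer2a went from 0.0541 to 0.000956 in PU.1 cKO against control and from 0.136 to 0.00251 for the interaction. In naive cells it was 0.0918 to 0.25, and after CD40L + IL-4 it was -0.0702 to 0.266. The 6 genes, the gene lists and the marker lists were chosen with earlier results of these data known. Genes outside the 6 were named when called with the largest log2 fold changes of their list in PU.1 SpiB DKO against control (at most 4 per list and stage), for their role as targets, or as absent. Promoter windows came from RefSeq (GRCm38.p6) and figures were drawn with matplotlib 3.10.9.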

Additional observations from a re-analysis of the deposited data

Results flagged for a closer look

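The effect of a genotype against control differed between stages for several of the 6 genes, by an edgeR quasi-likelihood test of the difference itself at an adjusted p under 0.15 over all genes. Values are differences of log2 fold changes, and each contrast uses the same control libraries for all mutants. In naive PU.1 SpiB DKO cells the loss of PU.1 was partial. Stage and completeness of the loss cannot be told apart where that genotype is compared with naive cells.

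For PU.1 cKO, CD40L + IL-4 minus naive cells gave -1.09 for Fcer2a, -1.2 for Fcgr2b, -1.78 for Fcrl5 and -1.66 for Fcrla (largest edgeR adjusted p = 0.0187). LPS + IL-4 minus naive cells gave -1.26 for Fcgr2b (edgeR adjusted p = 0.0123), -0.93 for Fcrl5 (edgeR adjusted p = 0.15 when rounded, under the threshold) and -1.2 for Fcrla (edgeR adjusted p = 0.12). Leaving out 1 library ended the Fcrl5 call for 7 of 8 libraries (values over all 8 of -1.25 to -0.75) and the Fcrla call for 5 of 8 (-1.79 to -0.91). LPS + IL-4 minus CD40L + IL-4 gave 1.36 for Fcer2a (edgeR adjusted p = 0.00304).

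For SpiB KO, Fcer2a alone passed, with 0.89 for CD40L + IL-4 minus naive cells and 0.89 for LPS + IL-4 minus naive cells (edgeR adjusted p = 0.0506 and 0.0363).

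For PU.1 SpiB DKO, CD40L + IL-4 minus naive cells gave 1.23 for Fcer2a, -1.48 for Fcgr2b and -1.8 for Fcrla (largest edgeR adjusted p = 0.00592), and -1.25 for Fcgrt (edgeR adjusted p = 0.0642), which was lost without cultured control replicate 2 (-0.77), cultured PU.1 SpiB DKO replicate 2 (-1.02) or naive control replicate 2 (-1.15). LPS + IL-4 minus naive cells gave 1.0 for Fcer2a, -0.97 for Fcgr2b and -1.6 for Fcrl5 (largest edgeR adjusted p = 0.0151). LPS + IL-4 minus CD40L + IL-4 gave -0.79 for Fcrl5 (edgeR adjusted p = 0.131), 1.33 for Fcrla (edgeR adjusted p = 0.033) and 1.42 for Fcgrt (edgeR adjusted p = 0.0358). The Fcrl5 value ran from -1.04 to -0.56 as libraries were left out in turn, and its call ended for 6 of 8. The Fcrla call was lost without control replicate 2 of CD40L + IL-4 (0.89) or of LPS + IL-4 (1.04). The Fcgrt call was lost without those same libraries (0.94 and 1.34) or without PU.1 SpiB DKO replicate 2 of CD40L + IL-4 (1.19).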

How the results depend on the processing

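Of 116 called results, 84 kept their call under every alternative and 0 changed sign. Of 52 results that were not called, 24 kept both their sign and the lack of a call under every alternative. Of the same 52, 15 changed sign at least once.

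An adjusted p under 0.05 left 0 of the 6 genes with an interaction in each culture and 1 called between PU.1 SpiB DKO cells and PU.1 cKO cells in each culture, and 1 in naive PU.1 cKO. Fitting all 24 libraries gave 2 calls in SpiB KO after CD40L + IL-4, 0 interactions after LPS + IL-4 and 1 call in naive PU.1 SpiB DKO against SpiB KO. DESeq2 gave 2 calls in SpiB KO after CD40L + IL-4 and 1 naive interaction. Without a filter on low counts there were 2 of each, and 4 interactions after CD40L + IL-4. Limma voom with quantile normalization gave 1 interaction after CD40L + IL-4, 0 after LPS + IL-4, and 1 call between PU.1 SpiB DKO cells and PU.1 cKO cells in each culture.

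Outside LPS + IL-4 the correlations of same-numbered libraries were lower, at most 0.25 in naive cells and 0.266 after CD40L + IL-4. Whether the replicate numbers pair the libraries is not established at any stage. With the replicate block outside LPS + IL-4, naive cells had 2 interactions (Fcer2a, -0.64, edgeR adjusted p = 0.0298, and Fcgrt, -0.5, edgeR adjusted p = 0.0912). SpiB KO after CD40L + IL-4 had 1 call (Fcer2a, -0.76, edgeR adjusted p = 0.127). PU.1 SpiB DKO after CD40L + IL-4 gained Fcgrt (-0.9, edgeR adjusted p = 0.121), the Fcer2a interaction there passed (0.81, edgeR adjusted p = 0.128), and the Fcrl1 difference, not called, turned to -0.00083. Between stages the block called the differences of the PU.1 SpiB DKO effect on Fcgr2b (LPS + IL-4 minus CD40L + IL-4, 0.51, edgeR adjusted p = 0.129, against 0.222 without it) and of the SpiB KO effect on Fcrl1 (CD40L + IL-4 minus naive, 0.56, edgeR adjusted p = 0.139, against 0.424).

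Leaving out each library in turn gave 0 to 3 interactions, 1 to 2 calls between PU.1 SpiB DKO cells and PU.1 cKO cells and 0 to 1 in SpiB KO after CD40L + IL-4. After LPS + IL-4 the ranges were 0 to 1, 1 to 3 and 1 to 3. In naive cells they were 0 to 1 interactions, 1 to 3 calls in PU.1 cKO, 1 to 2 in PU.1 SpiB DKO, and 1 to 2 in PU.1 SpiB DKO against each single mutant.

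Values that were not called and changed sign as libraries were left out had these ranges. In SpiB KO against control they were -0.17 to 0.23 for naive Fcgr2b, -0.083 to 0.42 for naive Fcrl5, and after CD40L + IL-4 -0.032 to 0.41 for Fcgr2b, -0.11 to 0.53 for Fcrl5 and -0.44 to 0.49 for Fcrla, and -0.18 to 0.045 for Fcrl1 after LPS + IL-4. In PU.1 SpiB DKO against control they were -0.33 to 0.061 for naive Fcgr2b, -0.204 to 0.22 for Fcrl1 after CD40L + IL-4 and -0.23 to 0.0052 for Spi1 after LPS + IL-4. In PU.1 cKO after LPS + IL-4 they were -0.15 to 0.09 for Fcrl1 and -0.17 to 0.25 for Fcgrt. For Fcer2a between PU.1 SpiB DKO cells and PU.1 cKO cells after CD40L + IL-4 they were -0.19 to 0.26. For interactions they were -0.66 to 0.27 for Fcrla after CD40L + IL-4, and -0.57 to 0.33 for Fcrla and -0.22 to 0.029 for Fcrl1 after LPS + IL-4. The cause of these changes was not tested.

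With 2 libraries a group precision was limited. Standard errors of log2 fold changes against control ran from 0.10 for naive Fcrl1 to 0.38 for Fcgrt after CD40L + IL-4, the stage with the shallowest libraries.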
